A study of Mus musculus with 10 samples.

Results

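Voltage-gated sodium channels are built from an alpha subunit, which forms the pore, and auxiliary beta subunits. The genes described here were 7 of the 23337 genes in a right atrial RNA-seq table, listed by name. They are not the whole family, and the list was made with earlier results of these data known. It holds the alpha subunit genes Scn10a, Scn4a, Scn3a and Scn7a, and the beta subunit genes Scn2b, Scn3b and Scn4b. RNA from right atria was sequenced from 4 mice labelled control (M1, M2, F1 and F2) and 6 mice labelled Tbx5 mutant (F1 to F3 and M1 to M3), 1 library per mouse. The letter of a mouse's name is its labelled sex, male or female. In this model a tamoxifen-inducible Cre recombinase under the R26 promoter, which is active in all tissues, excised exon 3 of Tbx5, so that no cell type was targeted. Tamoxifen was injected for 3 days at 0.167 mg per day, and the atria were taken 1 week later from mice of mixed strain aged 6 to 8 weeks by the protocol and 8 to 10 weeks by the sample descriptions. The labels call the control mice only control. For this model the study describes R26CreERt2 controls and Tbx5 fl/fl;R26CreERt2 mutants, so that both groups would carry the Cre.

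Sodium channels open on depolarization and carry the inward current of the cardiac action potential upstroke, which sets how fast an impulse crosses the atrium. Beta subunits have 1 membrane span and an immunoglobulin-like domain outside the cell, and they tune channel gating and surface level. Other proteins bind the channel inside the cell: fibroblast growth factor homologous factors at its C-terminal tail, ankyrins and PDZ proteins as anchors, and ubiquitin ligases that remove it from the membrane. Tbx5 encodes a T-box transcription factor of the atria and the conduction system. The comparison asks which of these genes differed between the right atria of the 2 labelled groups.

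The libraries held between 5703775 and 7095141 counts. Tbx5 went against the label: control libraries had 1195 to 1505 of its reads and those labelled Tbx5 mutant 1010 to 3524, and its level was 205 ± 17.8 CPM (counts scaled to a common library size, SD, n = 4) against 394 ± 83.3 CPM (SD, n = 6). A count over the whole gene does not show whether exon 3 is present, so every direction below is relative to the labels. Sex-linked genes went against the labelled sex in 4 of 4 control mice and 0 of 6 mutant mice. In the library labelled Tbx5 mutant M3, the ribosomal precursor gene Rn45s took 38.9% of counts, beside 0.268% to 1.49% in the other 9. Cardiomyocyte genes were abundant in every mouse: Myh6, Myl7, Myl4, Actc1, Tnnt2 and Tnni3 summed to 41510 to 58880 CPM in the controls and 48100 to 54860 CPM in the mice labelled mutant. Within these sums, Myl7 fell by 2.73 on the log2 scale (adjusted p = 9.36e-08, edgeR), while Actc1 rose by 0.90 (adjusted p = 0.000533) and Tnnt2 by 1.12 (adjusted p = 0.000872). Myl4 fell by 0.44 (adjusted p = 0.0217, edgeR), and Myh6 and Tnni3 stood at 0.10 (adjusted p = 0.711) and 0.03 (adjusted p = 0.868).

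By the GENCODE M21 annotation of GRCm38, the assembly also called mm10, 4 of the 7 genes lie on chromosome 9. Scn10a spans chr9:119608456-119719322 on the reverse strand. Scn3b (chr9:40269217-40291618), Scn2b (chr9:45117782-45130070) and Scn4b (chr9:45138395-45154152) lie on the forward strand, and Scn2b and Scn4b are neighbours, 8324 bases apart with 0 annotated genes between them. The other alpha subunit genes lie on the reverse strand: Scn4a at chr11:106318592-106353288, Scn3a at chr2:65457118-65567627 and Scn7a at chr2:66673425-66784914. The annotation places Gm13595, Gm10684 and Gm47266 over Scn3a, Scn2b and Scn3b on the opposite strand, each sharing 0 exon bases with the sodium channel gene.

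RefSeq promoters of GRCm38.p6 were at hand for 5 of the 7 genes, all but Scn3a and Scn3b. Scn4a, which was lower in the mice labelled Tbx5 mutant, and Scn7a, for which no difference was called, are shown because they are the alpha subunit genes with the most reads. Both are read 5′ to 3′ on the reverse strand, towards the RefSeq start. The Scn4a stretch is chr11:106349391-106349640, which lies inside the longer gene drawn by GENCODE and holds 186 bases of an exon of a transcript without an annotated UTR. The Scn7a stretch is chr2:66784915-66785160.
Scn4a: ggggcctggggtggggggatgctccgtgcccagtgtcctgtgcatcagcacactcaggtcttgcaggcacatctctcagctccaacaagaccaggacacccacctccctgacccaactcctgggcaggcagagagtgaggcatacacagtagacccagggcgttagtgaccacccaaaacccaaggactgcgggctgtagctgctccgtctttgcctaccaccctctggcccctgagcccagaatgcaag
Scn7a: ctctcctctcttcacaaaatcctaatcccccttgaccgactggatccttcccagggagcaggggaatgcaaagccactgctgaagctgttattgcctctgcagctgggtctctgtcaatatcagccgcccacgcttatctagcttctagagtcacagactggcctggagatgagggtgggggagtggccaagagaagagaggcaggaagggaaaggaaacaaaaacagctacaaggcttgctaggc
The core of the T-box motif, AGGTGT or its reverse complement ACACCT, was searched in the 250 bases before the start on both strands and would have been set in capitals. It was in 0 of the 5 promoters, and in 3887 of all 32851 RefSeq promoters (11.83%). Including the 50 bases after the start, the counts were 0 of 5 and 4514 of 32851 (13.74%). With 5 promoters, 0 cannot be told from these shares. Absence of these letters from this window says nothing about binding elsewhere. The Scn10a window is not shown, because all 250 of its bases lie in the first exon of a GENCODE transcript. GENCODE exons also hold 229 bases of the Scn4b window, 94 of the Scn2b window and 4 of the full Scn7a window.

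Of the 7 genes, 4 passed the expression filter and were tested: Scn10a, Scn4a, Scn7a and Scn3b. A gene was called at a Benjamini-Hochberg adjusted p (edgeR quasi-likelihood test, over all 13084 genes tested) under 0.05, a fold change over 1.5 and a mean normalized signal in the controls over 1. Scn10a and Scn4a were called lower in the mice labelled Tbx5 mutant, and 0 of the 4 higher, where 7.16% of all tested genes were called lower and 8.50% higher. Scn10a was the 1 gene of the 4 for which every mutant mouse lay below every control mouse, a pattern of 11.0% of all tested genes, while the opposite pattern (11.7% of all tested genes) was seen for 0 of the 4. The median log2 fold change was -0.50 over the 4 genes and -0.00495 over all tested genes. Scn10a reached the filter's level in 4 of 4 control mice and 2 of 6 mutant mice. It therefore entered these counts and this median through the group in which it was high, which limits their comparison with all tested genes. In bulk tissue, fewer cells of a type and less RNA per cell cannot be told apart.

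**Figure D1:**
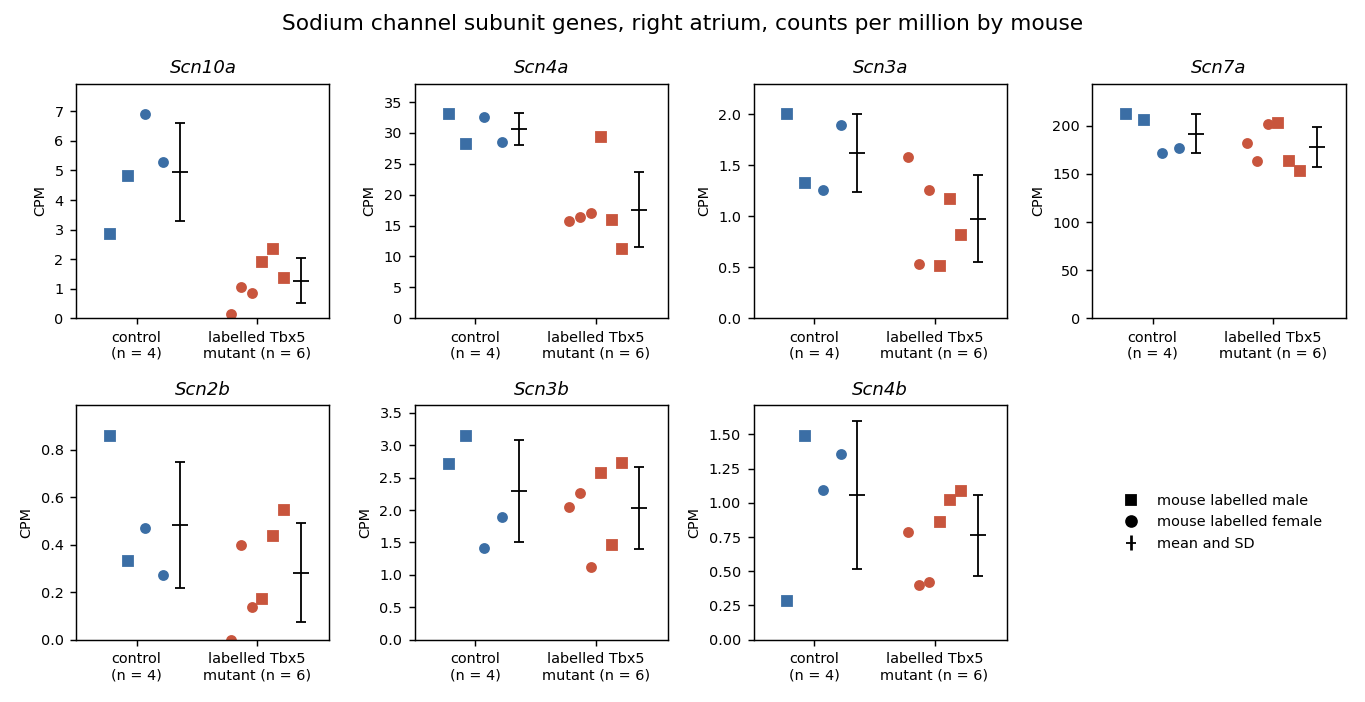
Level of each sodium channel subunit gene in each mouse, in CPM on a linear axis from 0 with its own scale per gene; blue is control and red is labelled Tbx5 mutant, squares are mice labelled male and circles female, and bars give the mean and SD. For Scn10a the 6 mutant mice (0.158 to 2.33 CPM) all sit below the 4 controls (2.86 to 6.90 CPM), for Scn4a mutant M1 sits among the controls, and the other 5 genes overlap between groups.

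Scn10a encodes Nav1.8, the tetrodotoxin-resistant channel best known from sensory neurons that signal pain, and variation at the human gene has been linked to cardiac conduction. In the controls its level was 2.86 CPM in M1, 4.80 in M2, 6.90 in F1 and 5.28 in F2. In the mice labelled Tbx5 mutant it was 0.158 CPM in F1, 1.07 in F2, 0.836 in F3, 1.89 in M1, 2.33 in M2 and 1.36 in M3. The groups do not overlap, and the control that came nearest to the mutants was M1. Scn10a fell by 1.96 on the log2 scale (SE 0.39, 95% interval -2.80 to -1.11), a level 3.88-fold lower, with an adjusted p of 0.00225 by edgeR. The two-sided exact permutation test of the CPM values gave p = 0.00952, the lowest value this design can give.

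The depth behind Scn10a was small, at 20 to 44 reads per control mouse and 1 to 16 per mutant mouse, 179 in all. It reached the filter's level of 1.58 CPM in 4 of 4 control mice and 2 of 6 mutant mice, so that it was tested through the group in which it was high. Leaving out 1 library at a time gave log2 fold changes of -2.24 to -1.72 and adjusted p values up to 0.0109 in edgeR. Of the 50-base windows along its longest transcript, 2% also occur in a transcript of 1 other gene, and reads from those windows could not be assigned by sequence alone.

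Of 7 listed genes of autonomic neurons, a cell type an atrial sample can hold, Dbh was the 1 that passed the expression filter. Like Scn10a, Dbh was called lower. The summed level of the 7 listed genes was 33.3 to 43.0 CPM in the controls and 10.8 to 13.5 CPM in the mice labelled mutant, and Dbh, which makes noradrenaline, held most of it. Dbh fell by 1.78 on the log2 scale (adjusted p = 9.51e-08, edgeR), from 36.4 ± 4.69 CPM (SD, n = 4) to 10.6 ± 0.885 CPM (SD, n = 6). Without Dbh, the 6 remaining genes summed to 0.627 to 2.71 CPM and 0.272 to 1.53 CPM, ranges that overlap. Prph had 1 to 7 reads per mouse, Th at most 14, Elavl4 at most 3, Chat at most 1 and Slc18a3 0 in every mouse, and Chrna3 had 0 reads in the controls and at most 5 in the mutants. The part of these cells in the Scn10a result was not tested.

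Scn4a encodes Nav1.4, the sodium channel of skeletal muscle fibres. Its level in the controls was 33.0 CPM in M1, 28.3 in M2, 32.6 in F1 and 28.6 in F2. In the mice labelled Tbx5 mutant it was 15.8 CPM in F1, 16.4 in F2, 17.0 in F3, 29.3 in M1, 15.9 in M2 and 11.2 in M3. Mutant M1 lay above 2 of the 4 controls, and the other 5 mutant mice lay below all of them. Scn4a fell by 0.79 on the log2 scale (SE 0.19, 95% interval -1.19 to -0.39), a level 1.73-fold lower, with an adjusted p of 0.006 by edgeR and p = 0.0286 in the two-sided exact permutation test. Reads numbered 171 to 231 per control mouse and 41 to 171 per mutant mouse. Without mutant M1 the log2 fold change was -0.998 (adjusted p = 6.67e-05, edgeR).

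Skeletal muscle genes were present at low levels. The 7 listed genes summed to 8.27 to 13.3 CPM in the controls and 4.66 to 9.03 CPM in the mice labelled mutant, ranges that overlap. The calcium pump gene Atp2a1 fell by 1.18 on the log2 scale (adjusted p = 0.0119, edgeR), and the fast troponin gene Tnnt3 had 2.22 ± 0.511 CPM (SD, n = 4) and 2.22 ± 0.852 CPM (SD, n = 6). Below the filter, Tnni2 had 1.57 ± 0.389 CPM (SD, n = 4) and 0.687 ± 0.423 CPM (SD, n = 6). Mylpf, also below it, had 0.852 ± 0.161 CPM (SD, n = 4) and 0.505 ± 0.252 CPM (SD, n = 6). The adult fast myosin genes Myh1, Myh2 and Myh4 had at most 3 reads in any mouse, with higher means in the mutants for Myh1 and Myh2. The part of skeletal muscle in the Scn4a result was not tested.

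Scn7a encodes Nax, a sodium-level sensor related to the voltage-gated channels and known from glia, Schwann cells and muscle. It had 172 to 212 CPM in the controls and 153 to 203 CPM in the mice labelled Tbx5 mutant, with 563 to 1484 reads per mouse. The group means were 192 ± 20.3 CPM (SD, n = 4) and 178 ± 21.2 CPM (SD, n = 6). The log2 fold change was -0.11 (SE 0.11, 95% interval -0.33 to 0.12, adjusted p = 0.472, edgeR), so that a difference of 1.5-fold in either direction lay outside the interval. With the trend of each library on transcript length removed, the estimate turned to 0.10 (adjusted p = 0.406, edgeR). Schwann cell genes summed to 68.5 to 91.0 CPM in the controls and 44.7 to 51.4 CPM in the mutant mice, most of it Mbp, the myelin basic protein gene, which fell by 1.02 (log2, adjusted p = 2.6e-05, edgeR). Sox10, which defines the lineage, had 0.758 ± 0.28 CPM (SD, n = 4) and 0.93 ± 0.412 CPM (SD, n = 6).

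Scn3a encodes Nav1.3, a channel of the embryonic nervous system. It had 8 to 14 reads per control mouse and 3 to 10 per mutant mouse and did not pass the filter, reaching 1.58 CPM in 3 of the 10 mice. Its level was 1.62 ± 0.384 CPM (SD, n = 4) against 0.977 ± 0.426 CPM (SD, n = 6), with overlapping groups (two-sided exact permutation p = 0.0571). In an edgeR fit of 18798 genes without the filter, its log2 fold change was -0.71 (SE 0.37, adjusted p = 0.187). Of its 50-base windows, 8.53% also occur in transcripts of 4 other genes, so its reads are uncertain to that extent.

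The beta subunit genes were low in both groups, and for none of the 3 was a difference called. Scn3b, the gene of a beta subunit that associates with its alpha subunit without a covalent bond, was the 1 beta gene tested. It had 9 to 19 reads per control mouse and 8 to 17 per mutant mouse. Its level was 2.29 ± 0.783 CPM (SD, n = 4) against 2.03 ± 0.632 CPM (SD, n = 6), with a log2 fold change of -0.21 (SE 0.30, 95% interval -0.86 to 0.45, adjusted p = 0.636, edgeR). The interval includes a fall of 1.5-fold, so that one could not have been told from no change at this depth.

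Scn2b and Scn4b, neighbours on chromosome 9 whose proteins bind alpha subunits through a disulfide bond, lay below the filter in all 10 mice. Scn4b had 2 to 10 reads per control mouse and 3 to 7 per mutant mouse, and a level of 1.06 ± 0.539 CPM (SD, n = 4) against 0.762 ± 0.294 CPM (SD, n = 6; two-sided exact permutation p = 0.305). Scn2b had 2 to 6 reads per control mouse and 0 to 3 per mutant mouse, and a level of 0.482 ± 0.264 CPM (SD, n = 4) against 0.282 ± 0.209 CPM (SD, n = 6; two-sided exact permutation p = 0.238). A count of 0, seen in mutant F1, allows up to 0.473 CPM by the floor of 3 counts. Without the filter, the edgeR log2 fold changes were -0.51 (SE 0.45, adjusted p = 0.459) for Scn4b and -0.81 (SE 0.63, adjusted p = 0.386) for Scn2b. Neither gene was tested in the fit with the filter, and falls of these sizes could not be told from no change at this depth.

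Levels of different genes were compared per kilobase of longest transcript. In the controls Scn7a stood at 26.1 CPM per kilobase, followed by Scn4a at 4.64, Scn10a at 0.741, Scn3b at 0.552, Scn4b at 0.212, Scn3a at 0.169 and Scn2b at 0.104. Scn7a lay above Scn4a, Scn4a above Scn10a, and Scn3b above Scn4b in every control mouse taken against every other. Neighbours whose ranges over control mice overlap were Scn10a with Scn3b, Scn4b with Scn3a, and Scn3a with Scn2b. In the mice labelled Tbx5 mutant, Scn10a stood at 0.190 CPM per kilobase, below Scn3b at 0.489, again with overlapping ranges, and the order of the other genes was as in the controls. Both tested alpha subunit genes with more reads, Scn7a and Scn4a, stayed above the other 5 genes per kilobase in every mouse.

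The lower Scn10a and Scn4a levels stood beside a trend on transcript length that separated the groups. Across 12951 genes with an annotated transcript, the Spearman correlation of the log2 fold change with transcript length was -0.316, a description over genes, which are not independent replicates. The deviation of each library from the gene means correlated with length at 0.124 to 0.330 in the controls, at 0.011 and 0.0429 in mutant F1 and M1, and at -0.380 to -0.161 in the other 4 mutant libraries. Mutant M1 had both the high Scn4a level and the trend nearest to the controls, whereas mutant F1, with a similar trend, had 15.8 CPM of Scn4a and the lowest Scn10a level of the 10 mice. All 7 sodium channel genes have long transcripts, of 4150 to 9560 bases. Among the 4411 tested genes in that length range, 9.5% were called lower and 5.35% higher, and the median log2 fold change was -0.13.

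With the length trend of each library removed, Scn10a had a log2 fold change of -1.78 (adjusted p = 0.00575, edgeR) and Scn4a of -0.62 (adjusted p = 0.0151, edgeR), and both remained called. A replicate block compares mice of the same name, so that mutants F3 and M3, which have no such control, do not enter its contrast. Each of its pairs also joins mice whose sex-linked genes differ. With this block added to the removal, Scn4a was at -0.54 (adjusted p = 0.0301, edgeR), under the 1.5-fold threshold, and Scn10a at -1.69 (adjusted p = 0.0448, edgeR). Group and length trend cannot be fully told apart in these libraries.

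**Figure D2:**
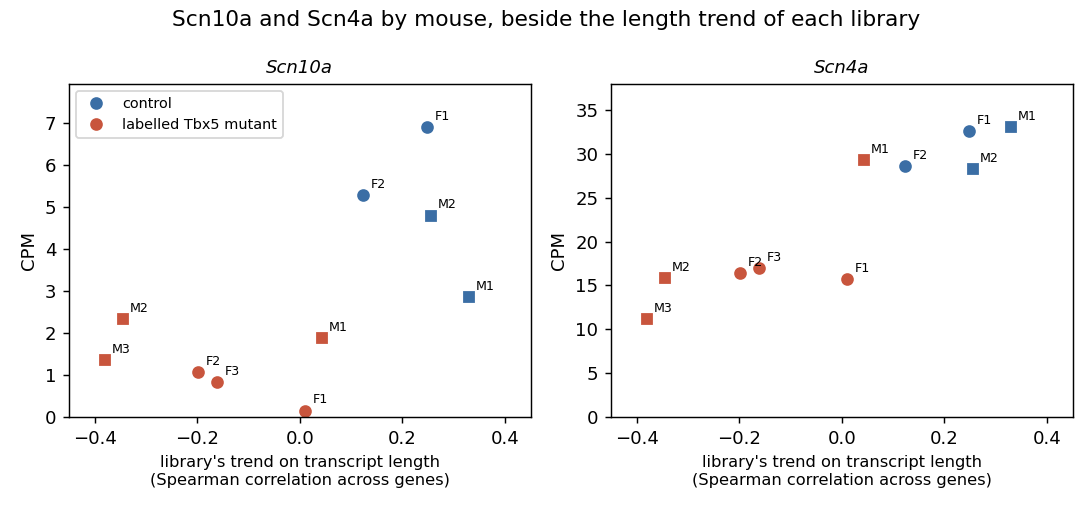
Level of Scn10a (left) and Scn4a (right) in each mouse in CPM, against the Spearman correlation across genes between that library's deviations from the gene means and transcript length; blue is control, red is labelled Tbx5 mutant, squares are labelled male and circles female. The 4 controls lie at 0.124 to 0.330 and the 6 mutant libraries at -0.380 to 0.0429, and for Scn4a mutant M1 (29.3 CPM) lies beside the controls while mutant F1 (15.8 CPM) does not.

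Of 16 listed genes whose products bind, anchor, traffic or modify sodium channels, 15 were tested. In the mice labelled Tbx5 mutant 4 were called lower (Fgf12, Fgf13, Fgf14 and Nedd4l) and 1 higher (Cav3), beside 7.16% and 8.50% of all tested genes, with a median log2 fold change of -0.27 over the 15. Every mutant mouse lay below every control for 6 of the 15 and above for 3, patterns of 11.0% and 11.7% of all tested genes. An adjusted p under 0.05 at any fold was found for 9 of the 15 and for 31.3% of all tested genes. The 4 of these 9 with a fold change under 1.5 were Dlg1, Gpd1l, Camk2d and Ptpn3.

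The fibroblast growth factor homologous factors stay inside the cell, bind the channel's C-terminal tail and shift its inactivation. The 3 that were tested were all called lower. Fgf12 had 255 to 327 CPM in the controls and 58.2 to 83.6 CPM in the mice labelled mutant, with a wide gap between the groups. It fell by 2.08 on the log2 scale (SE 0.12, adjusted p = 3.88e-08, edgeR), a level 4.24-fold lower. Per kilobase it stood at 71.2 CPM in the controls, above each of the 7 sodium channel genes. In the mice labelled mutant it stood at 16.8 CPM per kilobase, between Scn7a at 24.3 and Scn4a at 2.67. Fgf13 had 16.9 to 21.5 CPM in the controls and 6.00 to 8.23 CPM in the mutants, and fell by 1.47 (log2, SE 0.13, adjusted p = 3.18e-06, edgeR). Fgf14 had 16.8 to 23.3 CPM in the controls and 7.90 to 14.4 CPM in the mutants, and fell by 0.86 (log2, SE 0.16, adjusted p = 0.00117, edgeR). For each of these 3 genes the groups did not overlap, and with the length trend removed their log2 fold changes were -2.04, -1.56 and -0.85. Fgf11 did not pass the filter, at 5 to 12 reads per mouse.

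**Figure D3:**
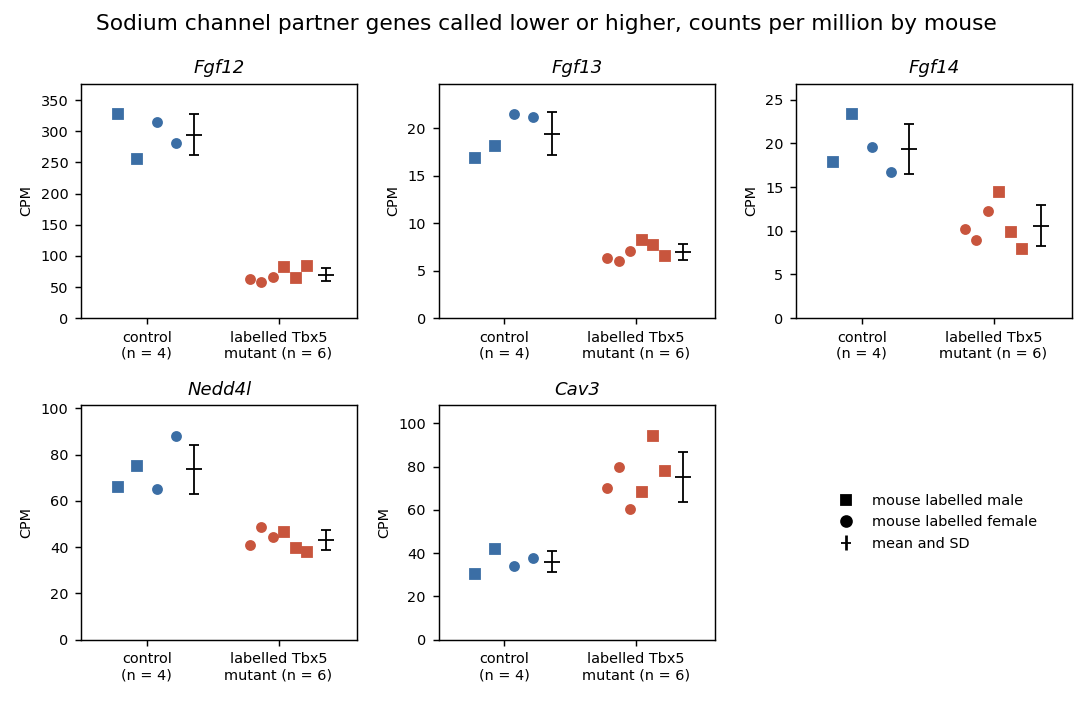
Level in each mouse, in CPM on linear axes from 0, of the 5 sodium channel partner genes that were called; blue is control, red is labelled Tbx5 mutant, squares are labelled male and circles female, and bars give the mean and SD. Fgf12, Fgf13, Fgf14 and Nedd4l are lower and Cav3 is higher in the mice labelled Tbx5 mutant, with no overlap between groups in any of the 5 panels.

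Nedd4l, a ubiquitin ligase that marks sodium channels for removal from the membrane, fell by 0.77 on the log2 scale (SE 0.11, adjusted p = 0.000144, edgeR), from 65.1 to 88.1 CPM in the controls to 37.8 to 48.8 CPM in the mutants. With the length trend removed its log2 fold change was -0.55 (adjusted p = 0.00161, edgeR), under the 1.5-fold threshold. Its relative Nedd4 had a log2 fold change of -0.15 (adjusted p = 0.234). Cav3, the scaffold protein of muscle caveolae, rose by 1.06 (log2, SE 0.13, adjusted p = 5.54e-05, edgeR), from 30.6 to 42.0 CPM to 60.5 to 94.2 CPM, and remained called without the length trend at 0.85.

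Among the other anchors, Dlg1 (SAP97) fell by 0.53 on the log2 scale (adjusted p = 0.00368, edgeR), with no overlap between the groups. With the length trend removed it was at -0.38 (adjusted p = 0.00968, edgeR). The ankyrin genes Ank2 and Ank3 had log2 fold changes of -0.28 (adjusted p = 0.142) and -0.15 (adjusted p = 0.4), which turned to 0.08 and 0.13 with the length trend removed. The membrane guanylate kinase gene Cask stood at -0.23 (adjusted p = 0.0774, turning to 0.01). Of the genes that help channels reach the membrane, Gpd1l rose by 0.42 (log2, adjusted p = 0.00222, edgeR), and Rangrf stood at 0.52 (adjusted p = 0.0737) on 13 to 26 reads per mouse. With the length trend removed Gpd1l was at 0.485 (adjusted p = 0.0011, edgeR) and Rangrf at 0.278 (adjusted p = 0.373). Of the genes whose products phosphorylate or dephosphorylate the channel, Camk2d fell by 0.44 (log2, adjusted p = 0.00285, edgeR) and Ptpn3 by 0.27 (adjusted p = 0.043), whereas Fyn stood at 0.01 (adjusted p = 0.961). With the length trend removed Ptpn3 was at -0.11 (adjusted p = 0.347, edgeR) and Camk2d at -0.31 (adjusted p = 0.0148), and with the replicate block added Camk2d was at -0.28 (adjusted p = 0.0873).

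**Figure D4:**
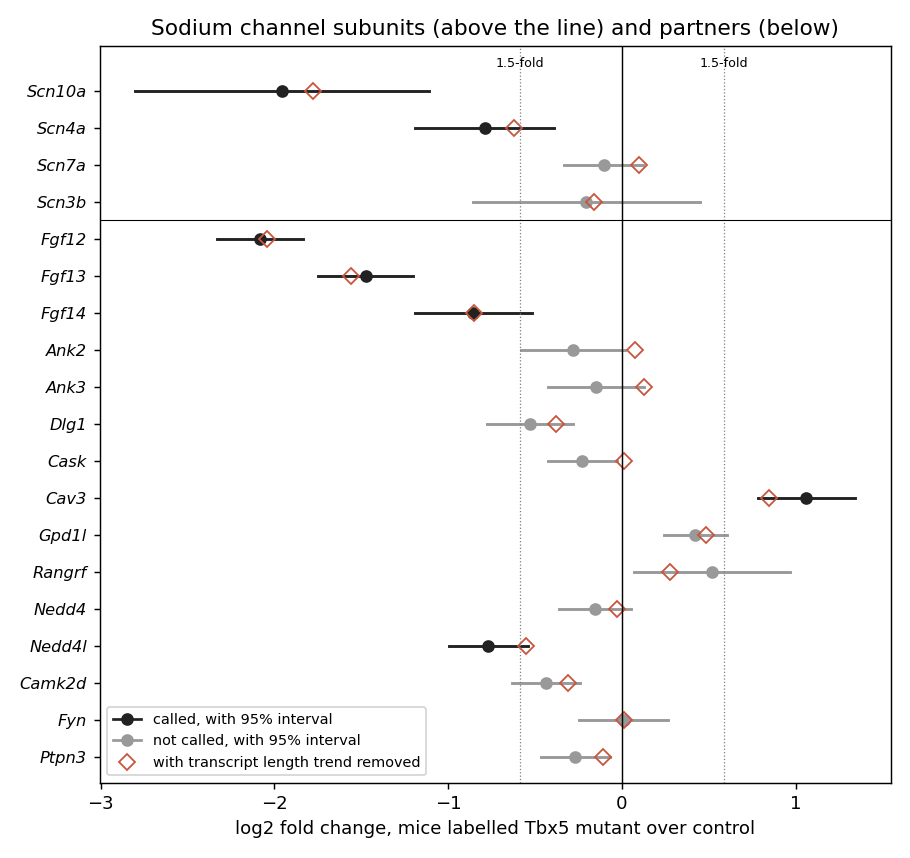
Log2 fold change (mice labelled Tbx5 mutant over control) of the 4 tested sodium channel subunit genes and the 15 tested partner genes, with 95% intervals; dark points were called and grey points were not, open diamonds give the value with each library's length trend removed, and dotted lines mark 1.5-fold. Scn10a and Scn4a lie below 0 in both fits, Scn7a, Ank2, Ank3 and Cask change sign, and Fgf12, Fgf13 and Fgf14 stay below the lower dotted line.

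For each tested sodium channel gene, up to 2 other genes with the most similar log2 CPM over the 10 mice are given, looked up among 13083 genes. Scn10a was followed by Gstm7 (Pearson r = 0.952), a glutathione transferase gene, and by Hamp (r = 0.948), the hepcidin gene, which went from 44.0 ± 25.7 CPM (SD, n = 4) to 5.17 ± 3.71 CPM (SD, n = 6). Scn4a was followed by Grin3b (r = 0.979), a glutamate receptor subunit gene, and by Sphkap (r = 0.977), an anchoring protein gene of protein kinase A, which went from 71.5 ± 14.5 CPM (SD, n = 4) to 30.0 ± 12.2 CPM (SD, n = 6). For Scn7a the gene was Klhl15 (r = 0.970), and for Scn3b they were Zfp384 (r = 0.926) and Stmn2 (r = 0.898). These correlations describe 10 libraries in 2 groups that also differ in the length trend, and the genes were taken as the highest of many.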

How the data were processed

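The samples were right atria of 10 mice, 1 RNA-seq library each. The authors deposited 1 table of raw read counts per gene, a normalized signal (each count divided by 1 size factor per library, as deposited) and columns of their own comparison, holding log2 fold changes with errors, a score, ratio fold changes and p-values, which were not used. The submitters' processing notes name mm10, FastQC, TopHat2 2.0.11, featureCounts and DESeq2. The annotation and the strand setting are not given in the sources used here, and the labels describe both mRNA and ribosome-depleted libraries. The study's methods describe left atrium, not analysed here. No per-sample column lay outside the series.

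Counts were fitted over all 10 libraries, without covariates, by edgeR 4.0.16 in R 4.3.3 (expression filter, TMM scaling, quasi-likelihood test, prior count 0.125). The filter kept 13084 genes. Standard errors came from dividing each log2 fold change by the root of its F statistic. CPM used TMM library sizes, with two-sided exact permutation tests over 210 splits. Lengths were longest GENCODE M21 transcripts. Libraries held 5703775 to 7095141 counts. Floors of 3 counts cover counting error only, since reads carry no molecular identifiers. Nothing says more of the replicates than that each is a mouse. The scripts were tested on simulated data.

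Alternatives were upper-quartile scaling, DESeq2 1.42.0, limma 3.58.1, other filters and prior counts, sex as a covariate, a replicate block, removal of each library's length trend by lowess (span 0.4), counts without Rn45s, each library left out, other thresholds and, added after the data were seen, the authors' size factors. Named genes were the 7 subunits, the partner list, up to 2 most similar genes per tested subunit, Tbx5 and cell type markers. Fibroblast markers summed to 2285 to 2873 CPM in controls and 2415 to 3257 CPM in mutants, endothelial markers to 936 to 1332 CPM and 1043 to 1245 CPM. Dcn held most of the fibroblast sum, at -0.01 on the log2 scale (adjusted p = 0.952, edgeR). Within it Col1a1 was called higher, at 1.31 (adjusted p = 0.000502), while Pdgfra fell by 0.40 (adjusted p = 0.0152). Tcf21 stood at 0.57 (adjusted p = 0.0618) and Lum at 0.45 (adjusted p = 0.0558). The members and lists were chosen with earlier results of these data known. Other genes of the family and a few genes of the lists are not reported here.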

Additional observations from a re-analysis of the deposited data

Results flagged for a closer look

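Scn4a in the mouse labelled Tbx5 mutant M1 stood apart from its group, at 29.31 CPM (171 reads) beside 11.2 to 17.0 CPM in the other 5 mutant mice. The gap to the nearest of these mice took up more of the group's range than Dixon's critical value for 6 samples allows. Of 46 groups of mice examined over the sodium channel and partner genes, 1 was marked in this way, and chance would give about 2.3.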

How the results depend on the processing

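Scn10a remained called in each of the 22 refits that tested it, with log2 fold changes of -2.24 to -1.49 and adjusted p values of 4.42e-05 to 0.0448. Scn4a kept its direction and an adjusted p under 0.05 in all 23 refits, at -0.998 to -0.537 (adjusted p 6.67e-05 to 0.0301). The number of sodium channel genes called was 2 in the fit reported and 2 in all 10 fits that left out 1 library. It was 1 with a mean count of at least 50 (Scn4a, where Scn10a and Scn3b were too low to be tested), 1 with a fold change over 2 (Scn10a), and 1 with the replicate block and length removal together (Scn10a). Scn7a was at 0.10 with the length trend removed and at 0.0891 with the block added. By the same settings Ank2 was at 0.0783 and 0.105, Ank3 at 0.128 and 0.174, and Cask at 0.0109 and 0.0356, while the cause was not tested. Fyn ranged from -0.0561 to 0.109 over the fits leaving out 1 library, and Ptpn3 lost an adjusted p under 0.05 in 14 of 23 fits. Partner genes called numbered 4 to 6, against 5 reported.

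No sign was seen that the replicate numbers pair the mice. Deviations of same-numbered control and mutant mice correlated at -0.047 to 0.0358 over 4 pairs, and those of the other 20 pairs at -0.286 to 0.276. So few pairs cannot exclude a pairing. With the replicate block, where mutants F3 and M3 have no control of their name, 2 sodium channel genes were called. Scn10a was at -1.87 (adjusted p = 0.0251, edgeR) and Scn4a at -0.70 (adjusted p = 0.00919, edgeR). Over all genes 1957 were called with the block and 2049 without.

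Depth limits Scn10a, Scn3a and the beta subunit genes, whose counts were at most 44 reads per mouse.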
